A study of Mus musculus with 4 samples.

Results

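The genes described here are the clustered histone genes of the mouse, read from RNA of Tip110-/- and wild-type blastocyst outgrowths on Affymetrix whole-transcript arrays. A member was a row of the deposited table annotated to exactly 1 gene symbol of the Hist1h to Hist4h form or of its updated names (H1f, H2ac, H2bc, H3c, H4c). That gave 33 rows and, after keeping the row with the highest mean of each gene, 32 genes of the 30139 genes with a row of their own. By type they were 4 H1, 10 H2A, 9 H2B, 3 H3 and 2 H4 genes, and 4 other linker histone genes that the name pattern also takes in (H1f6, H1f7, H1f8 and H1f10). The label of replication-dependent genes suits most of the first 28. Among them H2ac1 and H2bc1 are known as testis forms, and Hist1h2aj and H2bu1-ps are classed as pseudogenes. The label does not suit these 4 other linker genes. H1f6 and H1f7 are known from testis, H1f8 from the oocyte and H1f10 as a form made outside S phase. Of the 32, 22 lie on chromosome 13, 6 on chromosome 3, 2 on chromosome 6 and 1 each on chromosomes 11 and 15.

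Tip110 is the protein of the gene Sart3, which helps the U4 and U6 small nuclear RNAs to reassemble for further rounds of splicing. Blastocysts flushed at 3.5 days post coitum from matings of Tip110+/- parents were grown one to a well for 4 to 6 days until they had formed outgrowths, and each was genotyped. The Tip110-/- group had 2 arrays, a pool of 3 outgrowths with 165 pg of RNA in all and a single outgrowth with 144 pg. The wild-type group likewise had 2 arrays, a pool of 3 outgrowths with 746 pg and a single outgrowth with 178 pg. The sample labels give 144 pg as the amount labelled per array and the series' design text 100 pg. Neither group had a further allele or agent, parents carried 1 mutant copy, and the 2 arrays of a genotype differ in pooling as well as in embryo.

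Histone genes of this kind have no introns, stand in clusters and are transcribed in S phase, when new DNA must be packed. The core types form the nucleosome: H2A and H2B pair with each other, as do H3 and H4, and H1 binds the linker DNA between nucleosomes. Their mRNAs are the exception among those of animals in ending not in a poly(A) tail but in a stem-loop, which SLBP binds and behind which the precursor is cut with the help of the U7 small nuclear ribonucleoprotein. Many copies code for the same protein and are nearly identical in their coding sequence, so that a row named for 1 copy can hold signal of others.

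Values are log2 signals, on which a difference of 1 is 2-fold. The median over genes was 4.45 and 4.32 on the Tip110-/- arrays and 4.21 and 4.22 on the wild-type arrays, and the median of 23 antigenomic background rows was 3.05 and 2.94 on the Tip110-/- arrays against 2.83 and 2.82 on the wild-type arrays. The median gene was thus 0.15 higher in Tip110-/- outgrowths before any member is considered. Sart3 itself read 4.28 and 4.54 on the Tip110-/- arrays and 4.94 and 5.98 on the wild-type arrays, a difference of -1.05 ± 0.39 (SE, limma adjusted p = 0.386), lower on both Tip110-/- arrays; which exons the mutation removes is not stated in the labels. Epiblast markers (Pou5f1, Nanog, Sox2 and others, 8 of 8 measured) had list medians of 7.66 and 5.60 on the Tip110-/- arrays and 9.56 and 9.48 on the wild-type arrays. At an unadjusted p under 0.05, 6 of those 8 were lower, beside 3.67% of all genes. Trophoblast markers (9 of 12 measured) had medians of 10.43 and 12.47 on the Tip110-/- arrays and 9.75 and 9.97 on the wild-type arrays, with 1 of 9 higher at that p, beside 8.99% of all genes. Primitive endoderm markers (6 of 7 measured) had medians of 4.33 and 4.88 on the Tip110-/- arrays against 4.70 and 3.91 on the wild-type arrays. Sox17 and Sox7 of that list stayed under the median gene level in both genotypes, and no marker of the list passed. The labels give the same amount of RNA for each array, so for every gene below fewer cells of a type and less RNA per cell cannot be told apart, and the part that the marker differences have in the histone values was not tested.

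In all, 9 histone genes were lower in Tip110-/- outgrowths at an unadjusted p under 0.05 and none was higher. They were the linker genes H1f2 and H1f5, the H2A genes H2ac10, H2ac15, H2ac20 and Hist1h2aj, and the H2B genes H2bc3, H2bc12 and H2bc18. The count is 9 of 32 lower, beside 3.67% of all 30139 genes, and 0 of 32 higher, beside 8.99% of all genes. No histone gene passed limma's test adjusted by Benjamini-Hochberg over all genes, and neither did any other gene (0 of 30139, 0.0%), with 1106 genes lower and 2710 higher at an unadjusted p under 0.05. The adjusted p of the 9 genes lay between 0.287 and 0.377. With 2 arrays a genotype the smallest two-sided exact permutation p for a single gene is 0.333, so each call rests on the spread that limma shares across genes.

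The 32 differences ran from -2.84 to 0.49 with a median of -0.41, beside 0.15 over all genes. Without wild-type replicate 2 that median was -0.16 and without Tip110-/- replicate 2 it was -0.21. Both Tip110-/- arrays lay below both wild-type arrays for 14 of 32 histone genes (12.9% of all genes) and above them for 5 of 32 (39.9% of all genes), and for 13 the genotypes overlapped. By their mean over the 4 arrays 19 members were above the median over genes, 4.33, and the 9 lower genes are among them, where 7.11% of all genes above that level were lower at the same p. The other 13 were H1f3, H2ac18, H2ac19, H2bc9, H2bc21, H2bu1-ps, the 3 H3 genes and the 4 other linker genes, with differences between -0.40 and 0.41. By genotype mean, H1f5, H2bc18, H2ac12 and H2ac24 were above the level only in wild-type outgrowths, so the split is a description. The same held for H2bu1-ps, which was under the level by its mean over the 4 arrays.

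**Figure D1:**
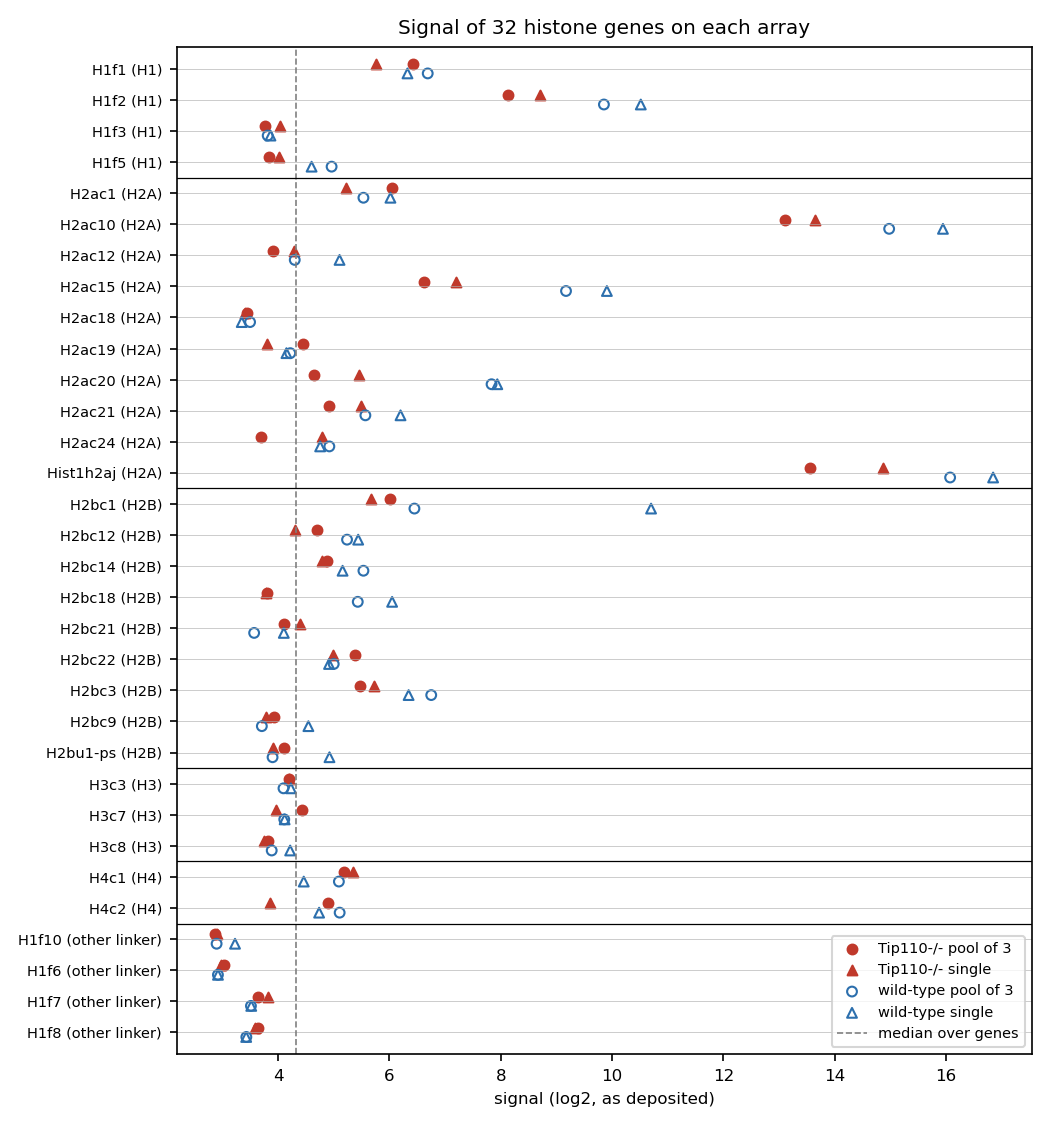
Log2 signal of the 32 histone genes on each of the 4 arrays, one gene a row, with Tip110-/- arrays filled and wild-type arrays open, pools of 3 as circles and single outgrowths as triangles; the dashed line is the median over genes (4.33). The filled symbols of H1f2, H2ac10, H2ac15, H2ac20, Hist1h2aj and H2bc18 stand well to the left of the open ones, while the H3 and other linker genes sit near or under the dashed line in both genotypes.

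Sequence around the start was not used to choose the members. RefSeq windows of 300 bases on GRCm38.p6 (250 before and 50 after the annotated start) were at hand for 28 of the 32 genes, with none for Hist1h2aj, H2bc21, H3c7 and H2bu1-ps. The octamer ATTTGCAT, searched on both strands, stood in 5 of 7 H2B windows and 3 of 9 H2A windows and in none of the other 12, beside 1.74% of all 32851 promoter windows. It is the octamer element long known from H2B promoters, where OCT1 binds it. The 3 H2A windows with it are those of H2ac1, H2ac12 and H2ac20, whose H2B neighbours lie 280, 177 and 191 bases away. Whether these matches belong to the H2B neighbour was not tested. The heptamer AAACACA of H1 promoters stood in 3 of 4 H1 windows, 1 of 9 H2A, 2 of 7 H2B and 1 of 4 other linker windows, beside 7.18% of all windows. CCAAT was in 25 of 28 (37.41% of all windows) and TATAAA in 14 of 28 (13.62%). These are matches of letters in a window and no measure of binding.

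The H2B stretches are shown because the lower and the remaining genes of this type can be set beside each other letter by letter; each is the 100 bases before the annotated start, 5' to 3' on the gene's strand, and capitals mark the octamer. H2bc18 is at chr3:96269600-96269699 (+), H2bc3 at chr13:23746634-23746733 (+) and H2bc12 at chr13:22035721-22035820 (+), and these 3 are among the 9 lower genes. H2bc14 is at chr13:21721944-21722043 (+), H2bc22 at chr13:21787388-21787487 (+) and H2bc9 at chr13:23543445-23543544 (-), and these did not pass.
H2bc18: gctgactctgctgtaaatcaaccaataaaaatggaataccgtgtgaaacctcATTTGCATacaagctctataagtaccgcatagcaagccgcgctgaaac
H2bc3: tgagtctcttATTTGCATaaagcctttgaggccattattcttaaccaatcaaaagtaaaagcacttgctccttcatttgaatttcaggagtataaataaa
H2bc12: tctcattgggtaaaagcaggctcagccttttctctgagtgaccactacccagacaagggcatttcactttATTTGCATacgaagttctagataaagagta
H2bc14: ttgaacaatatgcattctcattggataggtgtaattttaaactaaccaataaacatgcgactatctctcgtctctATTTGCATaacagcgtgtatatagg
H2bc22: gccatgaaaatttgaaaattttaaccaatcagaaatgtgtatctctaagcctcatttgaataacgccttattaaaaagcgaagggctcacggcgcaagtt
H2bc9: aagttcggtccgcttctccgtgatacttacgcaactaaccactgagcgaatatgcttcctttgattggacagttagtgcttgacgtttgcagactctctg
The octamer is in all 3 of the genes that were lower and also in H2bc14, with a difference of -0.51. It is in neither H2bc22 nor H2bc9, with differences of 0.23 and -0.27. The seventh H2B window, that of H2bc1, holds an octamer too. With 7 windows this is a description only.

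Among linker histones H1f2 and H1f5 were lower in Tip110-/- outgrowths and H1f1 and H1f3 did not pass. H1f2 (platform name Hist1h1c) read 8.14 and 8.70 on the Tip110-/- arrays and 9.85 and 10.52 on the wild-type arrays. Both Tip110-/- values were more than 1 unit under the lower wild-type value, and the difference was -1.76 ± 0.57 (SE, limma adjusted p = 0.363). The unadjusted p was no longer under 0.05 without Tip110-/- replicate 1, where the difference was -1.48, nor without wild-type replicate 2, where it was -1.43. H1f5 (Hist1h1b) read 3.84 and 4.02 on the Tip110-/- arrays, under the median gene level, against 4.96 and 4.60 on the wild-type arrays, above it. Its difference was -0.85 ± 0.20 (adjusted p = 0.334). H1f1 (Hist1h1a) read 6.42 and 5.77 on the Tip110-/- arrays against 6.69 and 6.33 on the wild-type arrays, and its genotypes overlapped. H1f3 (Hist1h1d) was at 3.78 and 4.04 on the Tip110-/- arrays against 3.82 and 3.86 on the wild-type arrays, a difference of 0.07 at a level under the median gene.

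The 130 bases before the start of the 4 H1 genes follow, with the H1 heptamer and the CCAAT box (either strand) in capitals, because the 2 genes that were lower share both elements with H1f3, which was not. H1f2 is at chr13:23738677-23738806 (+), H1f5 at chr13:21780626-21780755 (-), H1f3 at chr13:23554902-23555031 (+) and H1f1 at chr13:23763538-23763667 (+).
H1f2: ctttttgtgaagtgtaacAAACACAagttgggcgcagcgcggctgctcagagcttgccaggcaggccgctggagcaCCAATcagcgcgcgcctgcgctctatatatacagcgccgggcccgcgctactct
H1f5: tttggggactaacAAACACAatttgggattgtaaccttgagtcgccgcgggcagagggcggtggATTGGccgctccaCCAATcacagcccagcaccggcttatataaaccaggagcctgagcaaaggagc
H1f3: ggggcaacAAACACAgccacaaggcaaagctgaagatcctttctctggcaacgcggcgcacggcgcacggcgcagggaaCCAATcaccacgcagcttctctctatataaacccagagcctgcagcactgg
H1f1: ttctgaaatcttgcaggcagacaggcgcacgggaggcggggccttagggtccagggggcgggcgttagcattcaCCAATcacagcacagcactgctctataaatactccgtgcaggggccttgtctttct
All 4 carry CCAAT, and the heptamer is absent from H1f1 alone in this window.

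The H2A genes held the most negative difference. All 10 differences were at or under 0, with a median of -0.64. An unadjusted p under 0.05 was reached by 4 genes, beside 3.67% lower of all genes and 7.11% of genes above the median level. In 6 both Tip110-/- arrays lay below both wild-type arrays, beside 12.9% of all genes. H2ac20, from the small cluster on chromosome 3, read 4.64 and 5.46 on the Tip110-/- arrays and 7.84 and 7.94 on the wild-type arrays. Its difference of -2.84 ± 0.42 (SE, adjusted p = 0.287) was the most negative of the 32. H2ac15 (Hist1h2ak) read 6.63 and 7.19 on the Tip110-/- arrays against 9.17 and 9.91 on the wild-type arrays, a difference of -2.63 ± 0.54 (adjusted p = 0.327). In both genes the higher Tip110-/- array was more than 1 unit under the lower wild-type array.

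Hist1h2aj and H2ac10 were the other H2A genes that were lower. Hist1h2aj, for which the RefSeq gene table gives the name H2ac14 and the class of pseudogene, read 13.55 and 14.87 on the Tip110-/- arrays and 16.07 and 16.84 on the wild-type arrays, a difference of -2.25 ± 0.54 (adjusted p = 0.334). H2ac10 (Hist1h2af) read 13.11 and 13.64 on the Tip110-/- arrays against 14.98 and 15.94 on the wild-type arrays, a difference of -2.08 ± 0.45 (adjusted p = 0.332). Neither overlapped between genotypes. Both rows belong to a family whose copies are nearly alike, and which of the near-identical copies feeds each row cannot be told apart.

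The other 6 H2A genes did not pass. H2ac12, H2ac21 and H2ac24 had differences of -0.61, -0.68 and -0.60, with no overlap in H2ac12 and H2ac21. H2ac1, known in the mouse as the testis form TH2A, had -0.15. H2ac18 and H2ac19, a duplicated pair, had 0.00 and -0.06 at levels under the median gene.

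H2B showed 3 of 9 genes lower, a median of -0.51 and differences from -2.73 to 0.41. At an unadjusted p under 0.05, 3.67% of all genes were lower and 7.11% of those above the median level. H2bc18 (Hist2h2bb) read 3.81 and 3.79 on the Tip110-/- arrays and 5.43 and 6.05 on the wild-type arrays. The Tip110-/- values were under the median gene level and the wild-type values above it, and the difference was -1.94 ± 0.27 (SE, adjusted p = 0.287), the lowest unadjusted p of the 32. H2bc3 (Hist1h2bb) read 5.47 and 5.72 on the Tip110-/- arrays against 6.75 and 6.35 on the wild-type arrays, a difference of -0.95 ± 0.33 (adjusted p = 0.377). H2bc12 (Hist1h2bk) read 4.70 and 4.30 on the Tip110-/- arrays against 5.24 and 5.44 on the wild-type arrays, a difference of -0.84 ± 0.24 (adjusted p = 0.344). Both calls depended on single arrays. The unadjusted p of H2bc3 was not under 0.05 with the replicate number as a block, without either Tip110-/- array or without wild-type replicate 1 (differences -1.08 to -0.75), nor was that of H2bc12 without Tip110-/- replicate 2 (-0.64) or wild-type replicate 2 (-0.74).

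The difference of H2bc1 (Hist1h2ba), known in the mouse as the testis form TH2B, was carried by 1 array. H2bc1 read 6.01 and 5.68 on the Tip110-/- arrays, 6.45 in the wild-type pool and 10.70 in the single wild-type outgrowth. The genotypes did not overlap, but the SD of the wild-type pair was 3.01 and the difference of -2.73 ± 1.40 did not pass (adjusted p = 0.428). Between pools it was -0.44 and between single outgrowths -5.02. Without wild-type replicate 1 it was -4.86, with an unadjusted p under 0.05, and without wild-type replicate 2 it was -0.61. Of the other H2B genes, H2bc14 had -0.51 without overlap, H2bu1-ps, a transcribed pseudogene, -0.40, and H2bc9 -0.27. H2bc22 had 0.23. H2bc21 (Hist2h2be), known in the mouse as the source of a variant H2B of olfactory neurons, read 4.11 and 4.40 on the Tip110-/- arrays and 3.57 and 4.10 on the wild-type arrays. It had the only positive H2B difference without overlap, 0.41 (adjusted p = 0.444).

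**Figure D2:**
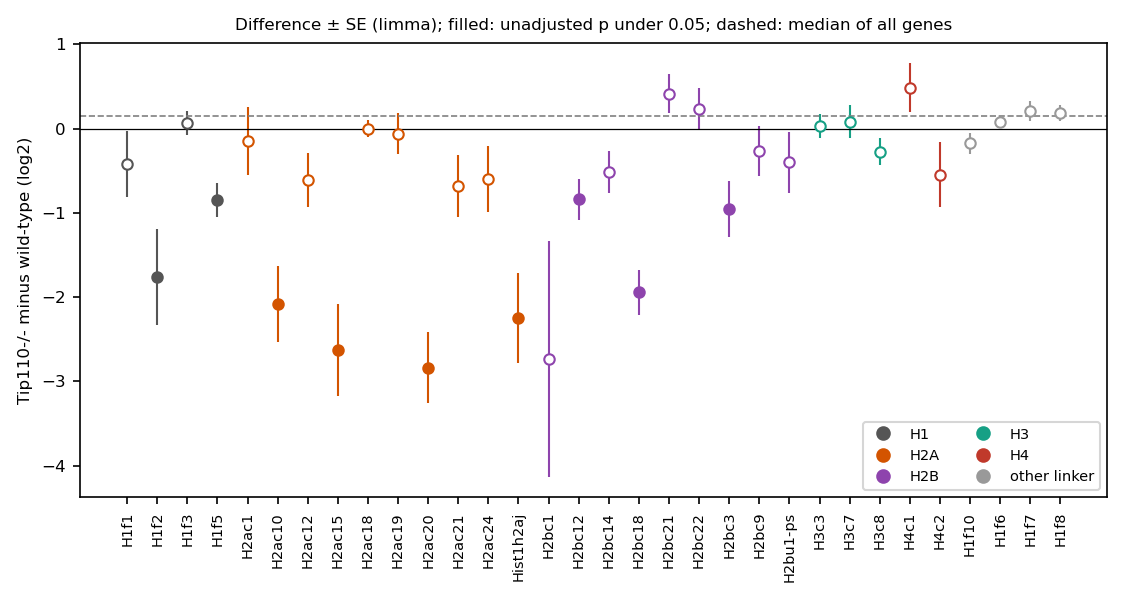
Tip110-/- minus wild-type difference (log2) of each histone gene, with limma's SE as the bar; filled points had an unadjusted p under 0.05 and the dashed line is the median over all genes (0.15). The 9 filled points lie between -2.84 and -0.84 and are all H1, H2A or H2B genes; the wide bar belongs to H2bc1.

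H3 and H4 had only 5 genes with rows of their own, and none passed. The 3 H3 genes were all under the median gene level in both genotypes, with H3c3 at 4.20 and 4.19 on the Tip110-/- arrays and 4.10 and 4.23 on the wild-type arrays (difference 0.03). H3c7 had 0.08 and H3c8 -0.27. The sign of the H3c3 difference turned to -0.13 once the columns were centred. H4c1 (Hist1h4a) read 5.19 and 5.34 on the Tip110-/- arrays and 5.09 and 4.46 on the wild-type arrays, and its difference of 0.49 ± 0.29 (adjusted p = 0.455) was the highest of the 32. H4c2 (Hist1h4b) read 4.89 and 3.86 on the Tip110-/- arrays against 5.11 and 4.74 on the wild-type arrays, a difference of -0.55. A dimmer row of H4c2, left out by the rule, went the other way, at 3.72 and 3.54 on the Tip110-/- arrays and 3.20 and 3.28 on the wild-type arrays (difference 0.39, unadjusted p under 0.05 with every row fitted on its own).

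The 4 other linker histones were all under the median gene level. H1f7, a spermatid form, read 3.63 and 3.81 on the Tip110-/- arrays and 3.51 and 3.52 on the wild-type arrays, a difference of 0.21 against 0.15 for the median gene. H1f8, the oocyte form, had 0.19, H1f6, the testis form, 0.08, and H1f10, a form made outside S phase, -0.17. None passed.

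Histone genes often stand with little DNA between them, and 5 such neighbour pairs were measured with rows of their own. In 4 pairs both differences were negative and in 1 the signs were opposite. That 1 was H2ac20 and H2bc21, with 191 bases between them and differences of -2.84 and 0.41. H2ac21 lies 58 bases from H2ac20 on the other side and had -0.68. Hist1h2aj had -2.25 and H2bc14, 242 bases away, -0.51, while H2bc1 had -2.73 and H2ac1, 280 bases away, -0.15. H2ac12 had -0.61 and H2bc12, 177 bases away, -0.84. The stretch between H2ac20 and H2bc21 is shown because 1 interval lies between a gene that was lower and a gene that was not; it is the 200 bases before the H2ac20 start, chr3:96220881-96221080 (-), of which the first 9 lie inside the annotated H2bc21. Capitals mark the octamer (here as its reverse complement), CCAAT boxes on either strand and the TATA box.
H2ac20: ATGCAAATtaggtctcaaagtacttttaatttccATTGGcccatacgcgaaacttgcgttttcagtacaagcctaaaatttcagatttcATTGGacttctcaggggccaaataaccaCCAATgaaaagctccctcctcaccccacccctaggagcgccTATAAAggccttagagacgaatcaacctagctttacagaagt
The octamer lies within those first 9 bases and TATAAA towards the H2ac20 start.

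Most copies of the core histones had no row of their own, and 38 rows were annotated to several histone genes at once. The rule leaves them out, and they are given here as a second reading of the same families. Of these 38, 12 were lower and 0 higher at an unadjusted p under 0.05, beside 3.67% and 8.99% of all genes. The median difference was -0.59, and in 26 of 38 both Tip110-/- arrays lay below both wild-type arrays, beside 12.9% of all genes. Of the 38, 34 had a genotype mean above the median gene level. Of the 15069 genes above that level by their mean over the 4 arrays, 7.11% were lower and 3484 had both Tip110-/- arrays below. The rows overlap in the copies they name, so they are not separate genes.

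Most H4 copies appear in the table only in such rows. Of 11 rows named for 13 H4 genes each, 6 had a lower signal at an unadjusted p under 0.05, beside 3.67% of all genes. The median of the 11 rows was -0.75, where the 2 member genes had 0.49 and -0.55. One such row read 10.65 and 9.67 on the Tip110-/- arrays and 13.10 and 12.93 on the wild-type arrays (difference -2.85 ± 0.56, SE, adjusted p = 0.317). Another read 10.98 and 10.40 on the Tip110-/- arrays against 12.13 and 13.20 on the wild-type arrays (difference -1.98). One more, at 12.73 and 9.59 on the Tip110-/- arrays and 12.36 and 10.18 on the wild-type arrays, was high in both pools and low in both single outgrowths, with a difference of -0.10.

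Shared H2A and H2B rows held copies with and without a difference. A row of 10 H2A genes read 13.36 and 13.94 on the Tip110-/- arrays and 15.72 and 16.18 on the wild-type arrays, a difference of -2.30 ± 0.36 (SE, adjusted p = 0.288). A row of Hist2h2aa1 and Hist2h2aa2, the copies now called H2ac18 and H2ac19, read 11.00 and 10.39 on the Tip110-/- arrays and 11.01 and 10.04 on the wild-type arrays, a difference of 0.17. A row of Hist1h2bf, Hist1h2bj, Hist1h2bl and Hist1h2bn read 9.08 and 9.05 on the Tip110-/- arrays and 11.45 and 12.53 on the wild-type arrays (difference -2.93 ± 0.60, adjusted p = 0.324). A row of Hist1h2bc, Hist1h2be and Hist1h2bg read 11.28 and 11.82 on the Tip110-/- arrays against 11.85 and 11.93 on the wild-type arrays, a difference of -0.34 (adjusted p = 0.721). A dimmer row of these last 3 genes had -0.78 (adjusted p = 0.384). No difference between copies was itself tested.

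For H3 the shared rows hold most copies. All 7 differences were negative, from -1.01 to -0.23, and none had an unadjusted p under 0.05. Their median was -0.11 between pools and -1.30 between single outgrowths, a gap that was not tested. In all 7 rows the single Tip110-/- outgrowth was below the single wild-type outgrowth.

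**Figure D3:**
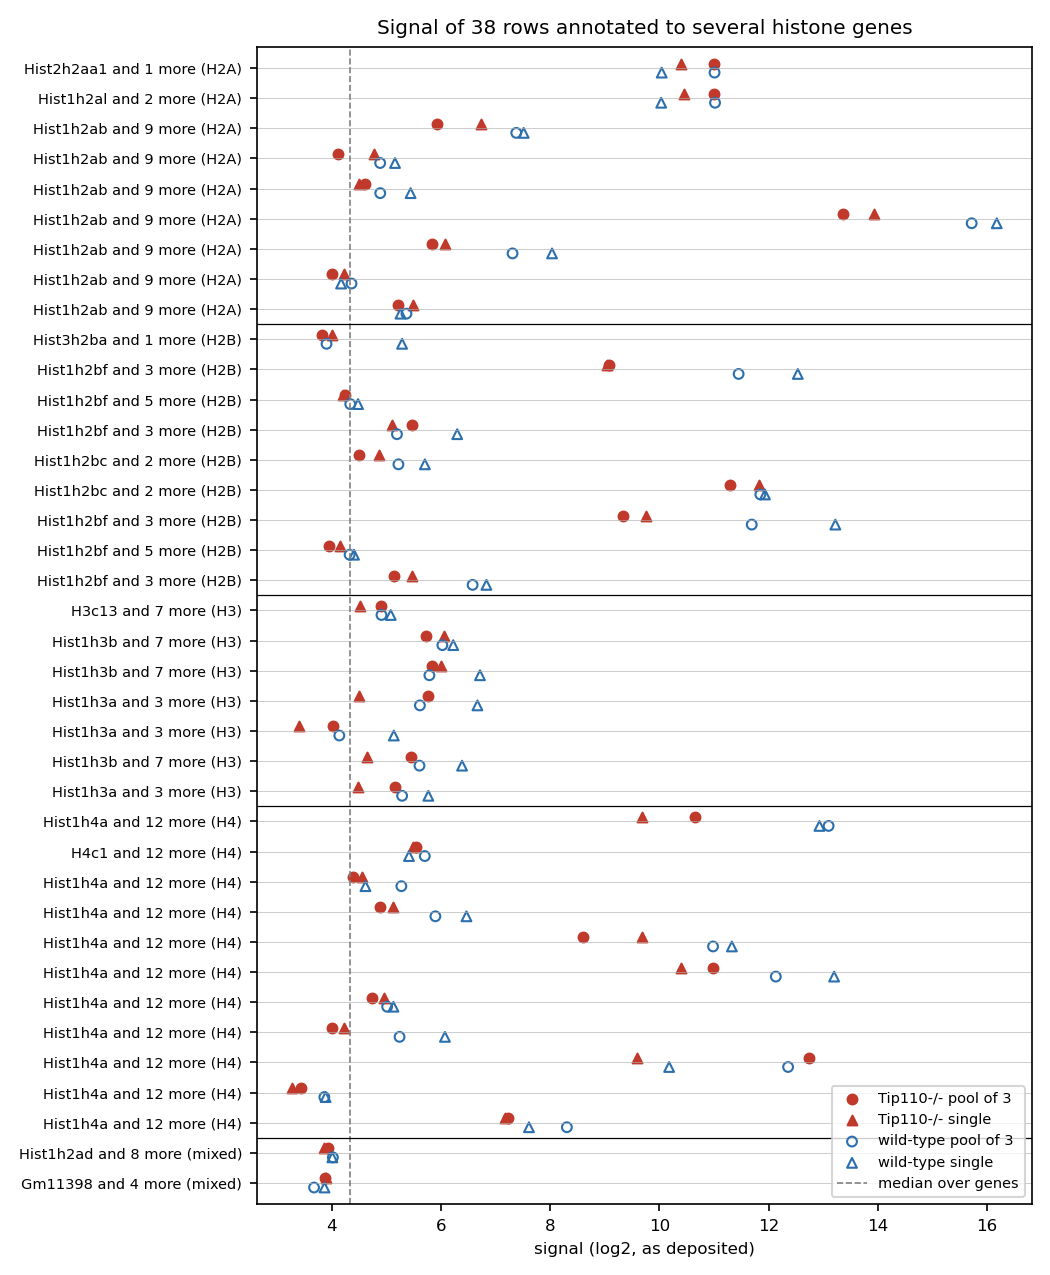
Log2 signal of the 38 rows annotated to several histone genes, one row each, named by the first gene and the number of further genes; symbols and dashed line as for the histone genes with rows of their own. Several H4, H2A and H2B rows show both Tip110-/- arrays 1 or more units left of both wild-type arrays. The 2 top H2A rows (Hist2h2aa1 with Hist2h2aa2, in the second row together with Hist1h2al) show no such gap.

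Pools and single outgrowths gave 1 comparison each. Differences were negative for 20 of 32 members between pools, for 23 of 32 between single outgrowths and for 17 of 32 in both (17.2% of all genes were lower in both). The median was -0.14 between pools and -0.57 between single outgrowths. All 9 genes with an unadjusted p under 0.05 were negative in both, which their selection by p favours. H2ac10 had -1.87 between pools and -2.30 between single outgrowths, H2ac15 -2.55 and -2.71, H1f2 -1.71 and -1.81, and H2bc18 -1.63 and -2.26. H2ac20 had -3.19 between pools and -2.48 between single outgrowths, and Hist1h2aj -2.52 and -1.98. In the other 3 lower genes the values lay further apart in proportion, at -1.12 and -0.58 for H1f5, -1.28 and -0.62 for H2bc3, and -0.54 and -1.14 for H2bc12. RNA per outgrowth differed in both, at 55 pg in the Tip110-/- pool against 249 pg in the wild-type pool and 144 pg in the single Tip110-/- outgrowth against 178 pg in the single wild-type outgrowth, and its part in the values was not tested.

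**Figure D4:**
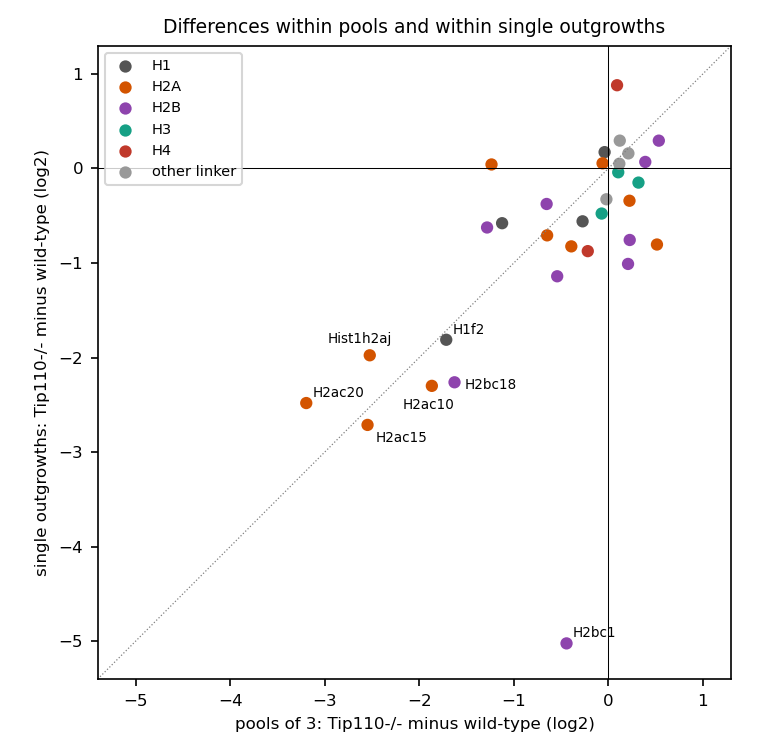
Tip110-/- minus wild-type difference (log2) of each histone gene between the pools of 3 (horizontal) and between the single outgrowths (vertical), coloured by type, with the line of equality dotted. H1f2, H2ac10, H2ac15, H2ac20, Hist1h2aj and H2bc18 lie near the line below -1.5 on both axes; H2bc1 is at -0.44 and -5.02.

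Replacement variants are histones of which many, but not all, are made throughout the cell cycle from polyadenylated mRNAs. They were lower alongside the clustered genes in 4 of the 8 measured of 11 listed, and 1 was higher (3.67% of all genes were lower and 8.99% higher). The lower count was 2 without Tip110-/- replicate 2. H2ax, whose phosphorylated protein marks DNA breaks, read 9.23 and 9.60 on the Tip110-/- arrays and 12.27 and 13.81 on the wild-type arrays (difference -3.63 ± 0.69, SE, adjusted p = 0.318). H2az1, the main gene of the variant H2A.Z, read 16.04 and 15.76 on the Tip110-/- arrays against 16.91 and 16.90 on the wild-type arrays (difference -1.01 ± 0.20, adjusted p = 0.321). Its partner gene H2az2 had -3.48 (adjusted p = 0.339) and Cenpa, the centromeric H3, -1.55 (adjusted p = 0.346). H2aj, an H2A variant gene, was higher, at 13.34 and 13.89 on the Tip110-/- arrays against 12.35 and 12.49 on the wild-type arrays (difference 1.20, adjusted p = 0.381). No variant was higher at an unadjusted p under 0.05 after centring, with the replicate number as a block, or without Tip110-/- replicate 2 or either wild-type array. The list median was -0.84. H3f3a and H3f3b, the genes of H3.3, had no row of their own.

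Factors that make and clear histone mRNA had a median near 0. At an unadjusted p under 0.05, of 25 measured of 27 listed, 2 were lower and 0 higher, with a median of -0.06. Beside these stand 3.67% lower and 8.99% higher of all genes, and 7.11% lower of the genes above the median level. The lower count was 1 without either Tip110-/- array or without wild-type replicate 2, and the higher count was 1 without wild-type replicate 1. The 2 were Sart3 and Srrt. Sart3 is the gene mutated in the Tip110-/- group, so its call is not read as a result about the rest of the list. Why its signal was lower was not tested. Srrt, the ARS2 protein of the cap-binding complex, read 8.69 and 9.71 on the Tip110-/- arrays and 11.43 and 11.41 on the wild-type arrays (difference -2.22 ± 0.59, adjusted p = 0.339). Slbp, the stem-loop binding protein, had -0.25 ± 0.38 (adjusted p = 0.734). Npat, the co-activator of histone transcription at histone locus bodies, had 0.04 ± 0.63, and Casp8ap2 (FLASH), which joins it there, 0.00 ± 0.65. Of the proteins particular to the U7 particle, Lsm10 had -0.97 ± 0.46 (adjusted p = 0.413) and Lsm11 -0.06 ± 0.19. Zfp473, which binds the U7 particle, had 0.07 ± 0.20. SEs of this size leave room for differences of 1 unit in Npat and Casp8ap2.

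Histone chaperones, which carry new histones to DNA, had 2 of 20 measured members (23 listed) lower and 0 higher, with a median of -0.59, beside 3.67% lower and 8.99% higher of all genes. The lower count was 1 without either Tip110-/- array or without wild-type replicate 2, and the higher count was 1 without Tip110-/- replicate 1. Mms22l, which acts with TONSL at stalled forks, had -1.25 ± 0.32 (adjusted p = 0.339) and Atrx, which deposits H3.3 with DAXX, -1.88 ± 0.68 (adjusted p = 0.384). In 11 of 20 both Tip110-/- arrays lay below both wild-type arrays, beside 12.9% of all genes. All 20 had a genotype mean above the median gene level. Of the 15069 genes above that level by their mean over the 4 arrays, 3484 had both Tip110-/- arrays below. At an unadjusted p under 0.05, 7.11% of those genes were lower, so the count of 2 of 20 is near that share.

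Genes of S-phase entry and DNA replication were in part lower too. Of 32 measured of 34 listed, 6 were lower and 0 higher at an unadjusted p under 0.05, beside 3.67% and 8.99% of all genes. In this list 31 of 32 had a genotype mean above the median gene level, and 7.11% of all genes above that level were lower. The higher count was 1 without Tip110-/- replicate 1. The median difference was -0.71, and the list medians were 7.89 and 7.88 on the Tip110-/- arrays and 9.45 and 9.28 on the wild-type arrays. Pole, the catalytic subunit of leading-strand polymerase, read 4.76 and 4.42 on the Tip110-/- arrays against 8.30 and 7.71 on the wild-type arrays (difference -3.41 ± 0.38, SE, adjusted p = 0.284). Top2a had -3.99 (adjusted p = 0.318), Tk1, thymidine kinase, -1.82 (adjusted p = 0.333) and Mcm10, a replication factor, -1.45 (adjusted p = 0.339). Medians of the S-phase genes and of the histone genes were both negative on the same 4 arrays, and the part of the first in the second was not tested.

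**Figure D5:**
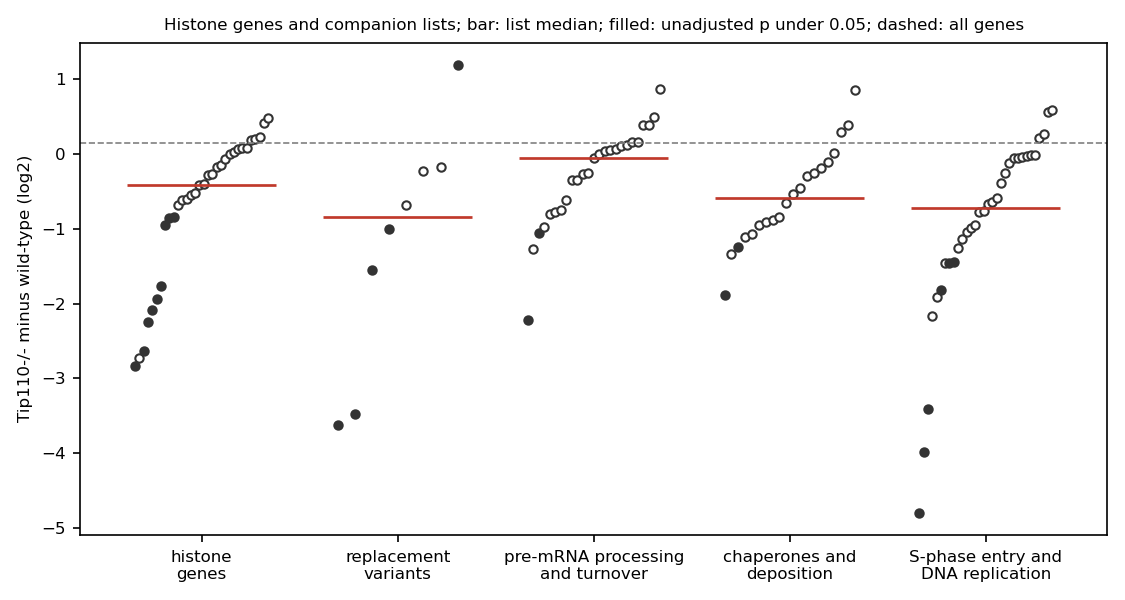
Tip110-/- minus wild-type difference (log2) of each gene in the histone members and 4 companion lists, ordered within a list; filled points had an unadjusted p under 0.05, bars are list medians (-0.41, -0.84, -0.06, -0.59 and -0.71 from left to right) and the dashed line is the median over all genes (0.15). The processing and turnover list is the one whose median lies near 0.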

How the data were processed

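The deposited table holds log2 signal values of 72688 rows for 4 arrays, as made by the authors. The software was Transcriptome Analysis Console and Affymetrix Expression Console, per the submitters' processing notes, which give neither version nor role. The build and the normalization method are not stated in the sources used here. The log base was inferred from the values. Detection calls were not used here. Of the rows, 30604 had 1 gene symbol, 2146 had several (not fitted, except the 38 histone rows), and 22951 of the first were renamed by Entrez ID through the RefSeq table of GRCm38.p6. Per gene the row with the highest mean was kept, leaving 30139 genes with no filter on level.

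Each gene was fitted with limma 3.58.1 (lmFit, eBayes with intensity trend, R 4.3.3) on genotype alone; p-values are two-sided, adjusted by Benjamini-Hochberg over all genes. The shared rows were fitted with all genes in a second run, with their p adjusted there. Because no gene passed an adjusted p of 0.05, calls use an unadjusted p under 0.05. The fit was also run on simulated data, with independent noise drawn from its own variance prior. That run checks the code under its own model and cannot show that the model suits these arrays. The labels say biological replicates, and the number of arrays limits precision. The histone genes and all gene lists were chosen with earlier results of these data known. Named with values on every array are members above the median gene level with an unadjusted p under 0.05, or with no overlap and a difference of at least 1, and the member of each type with the highest mean. Of each other list, fixed genes and up to 4 with the lowest p are named, and any further gene named was chosen after its values were seen. The labels do not say that replicate numbers pair samples, and same-numbered deviations correlated at -0.09 over all genes. Alternatives were quantile normalization, centring, cyclic loess, a filter at the median level, other variance priors, array weights, a replicate block, other row choices and each array left out; the comparisons within pools and within single outgrowths were added after seeing the data. Sequences are from RefSeq. Python 3.11.15, pandas 2.3.3 and matplotlib 3.10.9 were used for tables and plots.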

Additional observations from a re-analysis of the deposited data

How the results depend on the processing

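The count of 9 lower histone genes stayed within 1.5 times under every alternative run except the addition of the 38 shared rows, which made it 21, and leaving out one array at a time gave 7 to 13. With the replicate number as a block it was 9, and of the 9 genes H2bc3 had an unadjusted p of 0.05 or more. The count of higher genes was 1 with every row on its own, and 0 to 1 with one array left out. In the main run 19 of 32 genes had no overlap in either direction, beside 12.9% of all genes below and 39.9% above. With the 38 shared rows added the count was 46, over genes and rows that overlap in the copies they name. The median of -0.41 was -0.54 after quantile normalization, -0.57 after centring, -0.56 after cyclic loess, -0.84 for genes above the median level, -0.52 with shared rows, -0.53 for the canonical genes alone, -0.14 between pools, -0.57 between single outgrowths and -0.41 to -0.16 with one array left out. The filter at the median level gave medians of -0.85 for H1, -1.38 for H2A and -0.90 for H2B, and no value for H3. That filter uses the mean over the 4 arrays. H1f5, H2bc18, H2ac12 and H2ac24 were above the level only by their wild-type mean. The filtered medians, with the -0.84 for all types, are therefore tied to the difference and are no separate support. With one array left out, medians ran from -1.06 to -0.49 for H2A, -0.75 to -0.47 for H2B, -0.15 to 0.088 for H3 and -0.28 to 0.22 for H4. Centring gave -0.68 for H2B. The H3 median and H3c3, both 0.03, were each -0.18 after quantile normalization, -0.13 after centring and -0.19 after loess, and the H3 median was -0.31 with shared rows. H3c3 ran from -0.035 to 0.10 with one array left out. The H4 median of -0.03 was 0.20 for the mean of rows, 0.39 with every row and -0.55 with shared rows. H1f7 was -0.0027 after loess. The median of the processing and turnover list ran from -0.34 to 0.032 with one array left out. The cause of these moves was not tested; 4 arrays and low signal over background in 13 genes limit all of them.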
